A study of Mus musculus with 4 samples.

Results

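The genes analysed here encode 6 subunits of the 19S regulatory particle of the proteasome: Psmc1, Psmc3, Psmd1, Psmd4, Psmd12 and Psmd14. They were taken by gene name from a table of 1940 genes with called Nrf2 ChIP-seq intervals in or near them, and all 6 were found. Together they hold 7 of the 1460 loci of the table, since Psmd12 has 2. A locus is a region with its own peak height, or several regions known only by their mean.

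Nrf2 binding was profiled by chromatin immunoprecipitation followed by sequencing (ChIP-seq, antibody sc-13032 of Santa Cruz) in mouse esophagus. The groups were Keap1KO, a knockout of the adaptor that targets Nrf2 for degradation, Nrf2KO, a knockout of Nrf2 itself, and wild-type, all of strain C57BL/6. Each genotype had 1 library, and a library of pooled input DNA was not used here. Alleles, drivers of deletion, age and the number of animals per library are not stated. Without replicates no test between genotypes was possible, and each comparison below is of single libraries whose depth is unknown. The tissue label cannot be checked against markers, because peak heights do not measure expression.

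The 26S proteasome degrades proteins tagged with ubiquitin. Its 20S core holds the proteolytic sites, and the 19S particle caps the core, binds the ubiquitin chain, removes it, unfolds the substrate and opens the gate of the core. The base of the 19S particle carries a ring of ATPases (the Psmc genes) and large scaffold proteins, and the lid carries the deubiquitinase. Nrf2 binds antioxidant response elements as a dimer with small Maf proteins. Proteasome subunit genes are known to be under the control of Nrf2 and, more widely, of its relative Nrf1 (gene Nfe2l1).

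All 6 genes had a called interval in Keap1KO, 0 had one in Nrf2KO and 0 in wild-type. Over all loci, 99.2% were called in Keap1KO, against 0% in Nrf2KO and 3.77% in wild-type, so the calls of these genes are those of almost every locus. A gene entered the table through a call, which selects its Keap1KO height upwards and, where wild-type was not called, its wild-type height downwards. The heights below are therefore a description.

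The intervals of all 6 lay just inside the gene. The listed distance was 86 bp for Psmc1, 88 bp for Psmd12, 146 bp for Psmd14, 245 bp for Psmd1, 256 bp for Psmc3 and 273 bp for Psmd4. Of all 1460 loci, 454 (31.1%) lay within 1 kb of a gene start and 181 (12.4%) at 0 to 500 bp into a gene. Exons and introns are not given in the table. In the RefSeq promoter table (GRCm38.p6), which is not complete, no other gene had a start within 2 kb of the start that the deposited table gives for each of the 6. The intervals of 3 of the 6 were nevertheless listed under other genes as well, through the wide assignment of the table: that of Psmc3 under Rapsn and Slc39a13, that of Psmd1 under 2810459M11Rik, and that of Psmd12 under Pitpnc1. In each case the start of the proteasome gene was the nearest. The other 3 intervals were listed under 1 gene.

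RefSeq promoter sequences were matched for 5 of the 6 genes, and Psmc3 was not. Each window covered 250 bases before the start and 50 after it, so the listed positions of the intervals, 86 to 342 bp inside the RefSeq starts, lay just beyond it. The antioxidant response element core was searched as TGACNNNGC on both strands, and in a looser form as TGANNNNGC, of which every core match is also a match. The letters ACTTCCG, bound by ETS factors, were added after the sequences had been seen. The 250 bases before the start are printed for the 2 genes highest in Keap1KO, Psmd1 and Psmc1, and for Psmd12, which held the only core match. Capitals mark matches to any of the 3 patterns.
Psmd1 (chr1:86064369-86064618, plus strand): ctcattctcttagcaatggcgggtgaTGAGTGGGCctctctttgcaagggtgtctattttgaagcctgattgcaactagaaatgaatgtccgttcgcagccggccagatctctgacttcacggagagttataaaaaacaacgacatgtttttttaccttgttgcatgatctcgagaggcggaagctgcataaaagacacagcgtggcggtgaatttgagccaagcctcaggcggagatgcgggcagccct
Psmc1 (chr12:100109952-100110201, plus strand): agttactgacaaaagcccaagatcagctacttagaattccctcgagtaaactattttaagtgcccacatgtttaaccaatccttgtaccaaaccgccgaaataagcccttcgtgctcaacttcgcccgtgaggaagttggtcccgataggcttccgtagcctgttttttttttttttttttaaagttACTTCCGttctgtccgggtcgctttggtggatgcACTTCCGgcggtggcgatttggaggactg
Psmd12 (chr11:107479278-107479527, plus strand): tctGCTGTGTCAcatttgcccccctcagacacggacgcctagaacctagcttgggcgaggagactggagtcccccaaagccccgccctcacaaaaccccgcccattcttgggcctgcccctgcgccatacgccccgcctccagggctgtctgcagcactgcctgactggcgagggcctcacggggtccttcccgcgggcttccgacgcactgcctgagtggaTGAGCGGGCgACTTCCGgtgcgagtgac

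In Psmd12 the core match began 247 bases before the start and read TGACACAGC on the minus strand. It was 1 match among 5 windows, against 12.4% of all 32851 windows and 23.2% of the 479 windows of genes with a locus within 1 kb of their start. The looser form was present in 2 of the 5, as TGAGTGGGC in Psmd1 at 224 bases before the start and a second time in Psmd12 as TGAGCGGGC at 28 bases. It was present in 41.3% of all windows. ACTTCCG was present in 3 of the 5 windows, 2 times in Psmc1 and once each in Psmd12 and Psmd14, against 6.42% of all windows and 12.3% of the 479. The AP-1 letters TGANTCA were in 0 of the 5, against 7.81% of all windows. Psmd4 held none of these patterns. The matches are descriptions of letters, and a window without one says nothing of the sequence under the interval itself.

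Psmc1 (GeneID 19179, chr12:100110202-100123364, mm10, plus strand) encodes Rpt2, an ATPase of the base whose tail helps to open the gate of the core. At its start the peak height was 36 in Keap1KO, against 13 in Nrf2KO and 5 in wild-type. Psmc1 was the only gene of the 6 whose Nrf2KO height was more than 2-fold above wild-type. On the scale of log2(height + 1) used throughout, Keap1KO was higher than wild-type by 2.62 (6.17-fold) and higher than Nrf2KO by 1.40 (2.64-fold). The ratio over wild-type was thus the largest of the 6 and the ratio over Nrf2KO the smallest.

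Psmc3 (GeneID 19182, chr2:91054016-91059438, plus strand) encodes the ATPase Rpt5, another gate-opening subunit. Its height was 21 in Keap1KO, against 5 in Nrf2KO and 8 in wild-type, with Nrf2KO the lowest. Keap1KO was higher than wild-type by 1.29 (2.44-fold) and higher than Nrf2KO by 1.87 (3.67-fold). The neighbour Slc39a13, a zinc transporter gene, had a second region 467 bp upstream of its own start with 17 in Keap1KO, against 12 in Nrf2KO and 7 in wild-type. There the Nrf2KO height exceeded that at Psmc3, while the Keap1KO height was lower.

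The base subunits without ATPase activity differed the most in height. Psmd1 (GeneID 70247, chr1:86064619-86139295, plus strand) encodes Rpn2, a scaffold of the base. It was the tallest of the 6 in every library, with 47 in Keap1KO, against 14 in Nrf2KO and 15 in wild-type. Among loci within 1 kb of a start, 20 stood above Psmd1 in Keap1KO, against 4 in Nrf2KO and 11 in wild-type. Keap1KO was higher than wild-type by 1.58 (3.00-fold) and higher than Nrf2KO by 1.68 (3.20-fold), ratios near the middle of the 6 in spite of the height. Nrf2KO and wild-type differed by 1 height unit there. The wild-type height of 15 carried no call, although 37 of the 55 loci called in wild-type were lower than that, and only 5 of the 1405 loci not called in wild-type were at 15 or above. The neighbour 2810459M11Rik had a region of its own 7111 bp upstream of its start, with 30 in Keap1KO, against 8 in Nrf2KO and 9 in wild-type.

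Psmd4 (GeneID 19185, chr3:95032705-95042545, minus strand) encodes Rpn10, a receptor for ubiquitin chains. It had the lowest Keap1KO and Nrf2KO heights of the 6 at a gene start, with 19 in Keap1KO, against 4 in Nrf2KO and 8 in wild-type. Keap1KO was higher than wild-type by 1.15 (2.22-fold), the smallest of the 6, and higher than Nrf2KO by 2.00 (4.00-fold). At this gene and at Psmc3 the Nrf2KO height was below that of wild-type by 4 and 3 height units.

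In the lid, Psmd12 (GeneID 66997, chr11:107479528-107498036, plus strand) encodes Rpn5, a scaffold subunit, and was the only gene of the 6 with more than 1 region. The table gives the mean over both regions, 22.5 in Keap1KO, against 4 in Nrf2KO and 5.5 in wild-type. Because the region at the start is also listed under Pitpnc1 alone, the heights could be separated. The region at the start had 27 in Keap1KO, against 6 in Nrf2KO and 7 in wild-type, 3.50-fold above wild-type and 4.00-fold above Nrf2KO in Keap1KO. The region 12632 bp into the gene had 18 in Keap1KO, against 2 in Nrf2KO and 4 in wild-type, 3.80-fold above wild-type and 6.33-fold above Nrf2KO. All 3 libraries were lower inside the gene than at its start. With a Nrf2KO height of 2, the fold over Nrf2KO depends on the pseudocount.

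Psmd14 (GeneID 59029, chr2:61711694-61800376, plus strand) encodes Rpn11, the metalloprotease that removes ubiquitin chains from substrates. Its height was 26 in Keap1KO, against 8 in Nrf2KO and 6 in wild-type. Keap1KO was higher than wild-type by 1.95 (3.86-fold) and higher than Nrf2KO by 1.58 (3.00-fold). As at Psmc1, Nrf2KO stood above wild-type, here by 2 height units. The 2 lid genes were close in Keap1KO, Psmd12 at 27 and Psmd14 at 26.

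**Figure D1:**
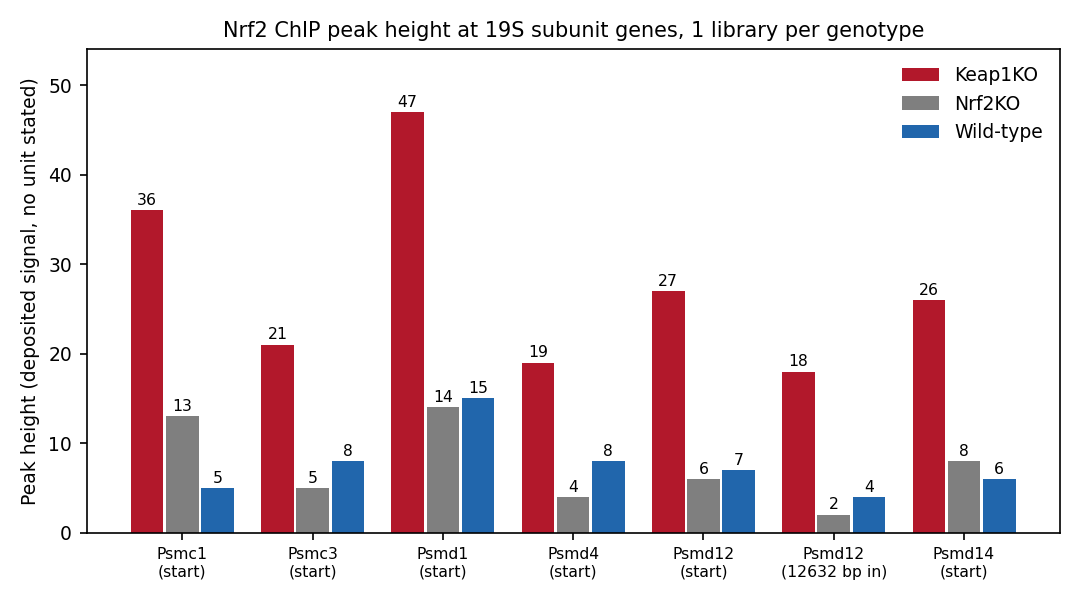
Peak height (deposited signal) at each locus of the 6 genes, with 1 bar per library in the order Keap1KO, Nrf2KO and wild-type and no error bars, since each genotype has 1 library. In heights as deposited, Keap1KO was the tallest bar at all 7 loci, from 18 to 47, while the order of Nrf2KO and wild-type varied between genes. Of all 1460 loci, Keap1KO was above wild-type at 1442 and above Nrf2KO at 1445.

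Across the 6 genes, by the locus at the start, heights ran from 19 to 47 in Keap1KO (median 26.5), against 4 to 14 in Nrf2KO (median 7) and 5 to 15 in wild-type (median 7.5). The lowest Keap1KO height was above the highest height of either other library. Locus by locus, Keap1KO was above wild-type at 1442 and above Nrf2KO at 1445 of all 1460 loci, so its higher position is general. The order in Keap1KO was Psmd1, Psmc1, Psmd12, Psmd14, Psmc3 and Psmd4, and without replicates it is not known which neighbours in that order differ beyond their spread. Over the 454 loci within 1 kb of a start the medians were 17 in Keap1KO, against 7 in Nrf2KO and 6.58 in wild-type. Over the 181 loci at 0 to 500 bp into a gene they were 17, 7 and 6 in the same order of libraries. All 6 genes lay above these medians in Keap1KO, and they straddled them in Nrf2KO and wild-type.

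Set against wild-type, Keap1KO was at least 2-fold higher at 6 of 6 genes, a size met by 88.0% of all loci and by 76.2% of those within 1 kb of a start. The median log2 ratio was 1.70 over the 6 (range 1.15 to 2.62), against 1.74 over all loci and 1.42 over those near a start. Set against Nrf2KO, Keap1KO was at least 2-fold higher at 6 of 6, against 85.3% of all loci and 66.1% near a start. That median was 1.78 over the 6 (range 1.40 to 2.00), against 1.91 over all loci and 1.29 near a start. Keap1KO was at least 2-fold above both of the other libraries at 79.5% of all loci, at 58.6% of those within 1 kb of a start and at 51.4% of those 0 to 500 bp into a gene. With 6 genes, counts so close to the share of all loci do not set the group apart from all loci in either comparison. The shares near a start were lower. With 6 genes chosen with earlier results of these data known, that gap was not tested. These directions rest on heights as deposited. With each library scaled to a common median over all loci, the median ratios of all loci became 0.070 over wild-type and 0.075 over Nrf2KO. Those of the 6 became −0.050 and −0.14. Psmc3, Psmd1 and Psmd4 then lay below wild-type, and Psmc1, Psmd1 and Psmd14 below Nrf2KO. By construction this scaling removes any difference shared by most loci. The signs after it place a gene against the other loci and give no direction between genotypes.

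Each ratio of Keap1KO shares its library with the other ratio, so the 2 are not separate evidence. Over wild-type the order was Psmc1, Psmd14, Psmd12, Psmd1, Psmc3 and Psmd4. Over Nrf2KO, Psmd4 and Psmd12 came first, followed by Psmc3, Psmd1, Psmd14 and Psmc1.

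**Figure D2:**
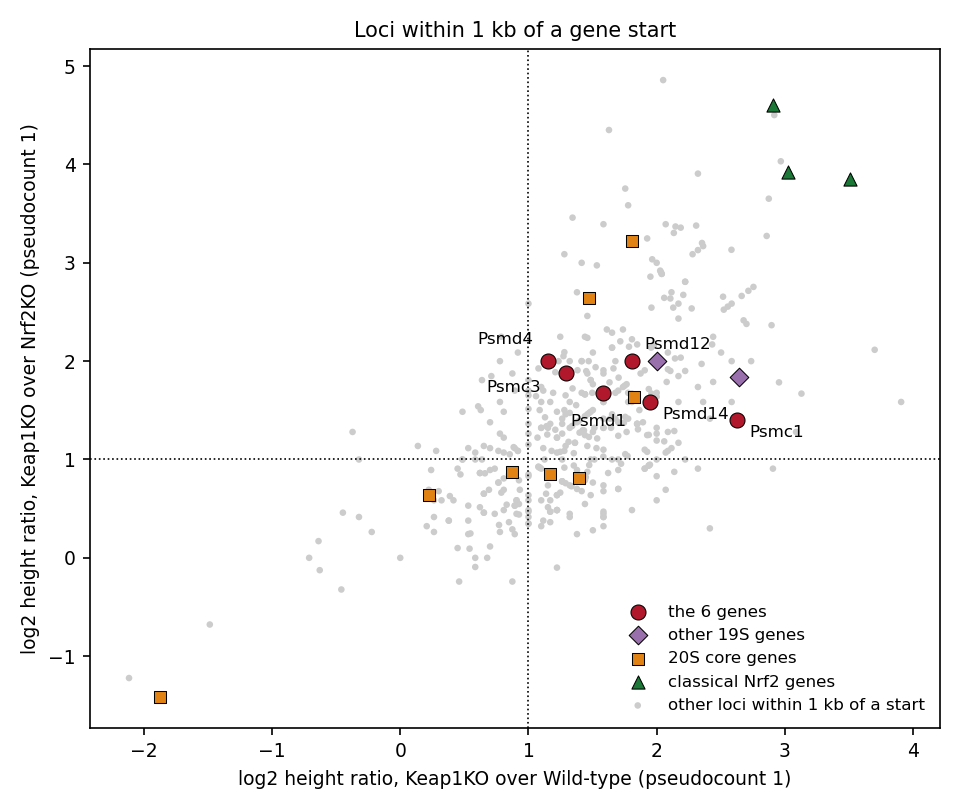
Log2 ratio of peak height of Keap1KO over Nrf2KO (vertical) against that of Keap1KO over wild-type (horizontal), 1 point per locus within 1 kb of a gene start, pseudocount 1, with dotted lines at 2-fold. The 6 genes lie in the upper right field of both lines within the main cloud, below Nqo1, Txn1 and Srxn1 (triangles), and the square at the lower left is the locus of Psmb1, which lies at the start of Tbp.

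Nrf2KO and wild-type differed in either direction among the 6. Nrf2KO was higher at 2 genes, Psmc1 (by 8 height units, 2.33-fold) and Psmd14, and lower at 4. Over all 1460 loci it was higher at 522, equal at 152 and lower at 786. Over the 454 loci near a start these counts were 216, 44 and 194. Nrf2KO was at least 2-fold higher at 1 of 6, against 8.29% of all loci and 8.37% of those near a start, and at least 2-fold lower at 0 of 6, against 18.8% of all loci and 8.15% of those near a start. The median log2 ratio of Nrf2KO over wild-type was −0.14 over the 6 (range −0.85 to 1.22), −0.19 over all loci and 0.00 near a start. With only the 3 genes whose interval is listed under no other gene, Psmc1, Psmd4 and Psmd14, that median was 0.36. How far heights of this size differ between repeat libraries was not measured.

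The classical Nrf2 genes Nqo1, Txn1, Srxn1, Gclc, Gclm, Hmox1 and Txnrd1, used here as a scale, had heights of 28 to 194 in Keap1KO, against 2 to 10 in Nrf2KO and 5 to 25 in wild-type. Their median log2 ratio of Keap1KO over Nrf2KO was 3.70, and that of Nrf2KO over wild-type was −1.12, with Nrf2KO at least 2-fold lower at 5 of 7. All 6 proteasome genes lay below the lowest of these 7 genes in the ratio of Keap1KO over Nrf2KO, which was 3.27 at Gclm. Unlike the 6, Gclm, Gclc, Hmox1 and Txnrd1 had loci farther than 1 kb from a start. Over all such loci the median of this ratio was 2.17, against 1.29 within 1 kb of a start. Among Nqo1, Txn1 and Srxn1, which lay within 1 kb, the lowest was 3.85 at Srxn1. In Keap1KO height the ranges overlapped, since Psmd1 at 47 and Psmc1 at 36 were above Gclm at 28. In Nrf2KO height Psmc1 and Psmd1, at 13 and 14, were above all 7.

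Of 23 genes of the 19S particle and its assembly chaperones, 10 (43.5%) had a locus in the table, against 7.67% of 21900 protein-coding genes. The other 13 had none. This list and those below were chosen with earlier results of these data known, so such shares are descriptions and were not tested. The 10 were the 6 genes above with Adrm1, Psmd7, Psmc2 and Psmd5. Adrm1 encodes the ubiquitin receptor Rpn13, and had 49 in Keap1KO, against 13 in Nrf2KO and 7 in wild-type at a locus lying 228 bp before its start and also listed under Osbpl2 and Lama5. Like Psmc1, it combined a tall Keap1KO peak with Nrf2KO above wild-type. The latter was met by 216 of the 454 loci within 1 kb of a start. Psmd7 encodes Rpn8, the partner of Rpn11 in the lid, and had 35 in Keap1KO and 8 in each of Nrf2KO and wild-type at 130 bp into the gene. Psmc2, the ATPase Rpt1, had 14 in Keap1KO, against 6 in Nrf2KO and 5 in wild-type at 1645 bp into the gene. That locus was also listed under Dnajc2. Psmd5, a chaperone of base assembly, had 16 in Keap1KO, against 4 in Nrf2KO and 5 in wild-type at 1074 bp, also listed under D730039F16Rik. Psmc2 and Psmd5 were the lowest of the 10 in Keap1KO and the only ones farther than 1 kb from a start. In Keap1KO all 10 stood 2-fold or more above Nrf2KO and likewise above wild-type. These sizes were met by 85.3% and 88.0% of all loci, and by 66.1% and 76.2% of those within 1 kb of a start.

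The 20S core genes had a locus for 8 of 19 (42.1%). Their heights were 2 to 27 in Keap1KO (median 20.5), against 2 to 11 in Nrf2KO (median 7.75) and 6.5 to 11 in wild-type (median 7.5). Of the 8, 5 had a Keap1KO height 2-fold or more above wild-type and 3 had one 2-fold or more above Nrf2KO. Over the loci within 1 kb of a start these sizes were met by 76.2% and 66.1%. Psmb1 set the lower end in Keap1KO, with 2 in Keap1KO, against 7 in Nrf2KO and 10 in wild-type at a locus called in wild-type alone and nearest to the start of Tbp. The 3 above Nrf2KO were Psma5 (27, 2 and 7 in Keap1KO, Nrf2KO and wild-type), Psma4 (24, 3 and 8) and Psmb3 (25.5, 7.5 and 6.5). The locus of Psma4 was also listed under Agphd1 and AY074887, and was nearest to the start of AY074887. The 19S and 20S groups hold few genes in single libraries, and the difference between them was not tested.

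**Figure D3:**
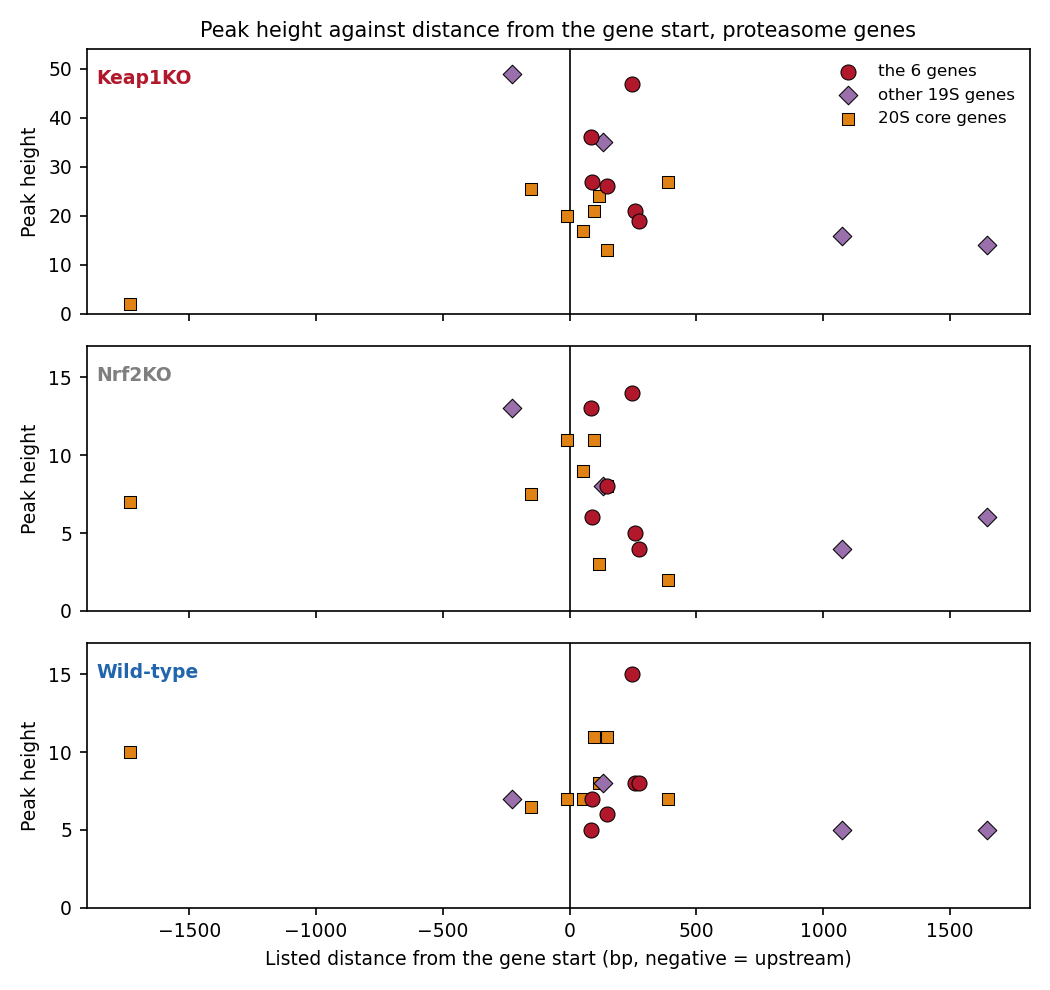
Peak height against the listed distance from the gene start (bp), with a panel each for Keap1KO, Nrf2KO and wild-type (vertical scales differ), 1 point per gene with a locus among the 19S and 20S lists, some points overlapping. The 6 genes (circles) sit between 86 and 273 bp inside the gene, and the 19S genes beyond 1 kb, Psmd5 and Psmc2, have lower Keap1KO peaks of 16 and 14.

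Among other factors of the pathway, Pomp, which helps to assemble the core, had 18 in Keap1KO, against 4 in Nrf2KO and 5 in wild-type, and was the only one of 5 core assembly genes with a locus. Of 11 partners of the proteasome, 4 had a locus. These were the shuttle genes Rad23b (25, 9 and 6 in Keap1KO, Nrf2KO and wild-type) and Ubqln1 (21, 12 and 8), the deubiquitinase gene Usp14 (18, 3 and 10), and AI314180, an older symbol of the proteasome adaptor Ecpas (19.3, 5.67 and 5.33). The heights of AI314180 are means of 3 regions, the nearest 1205 bp from its start. Of 6 genes of the p97 unfoldase system 3 had a locus, and Faf1, a cofactor of p97, had 35 in Keap1KO, against 13 in Nrf2KO and 14 in wild-type. Vcp had 44, 5 and 10, and Nploc4 had 21, 6 and 4, in the same order of libraries. The heights of Vcp are means of 2 regions, also listed under Fancg and called in wild-type. The locus of Nploc4 lay 50244 bp from its start and was also listed under 2310003H01Rik. Of the activators and inhibitor of the core 0 of 5 had a locus in the table, and Nfe2l1 had none.

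Likeness of pattern was measured as the Euclidean distance of log2(height + 1) over the 3 libraries, and locus points share those libraries. To the median profile of the 6 genes (26.5 in Keap1KO, against 6.94 in Nrf2KO and 7.49 in wild-type), Psmd12 was the nearest of the 6 at 0.20 and Psmd1 the farthest at 1.53. The 5 nearest loci of other genes were those of Plec with Mir1942 (distance 0.19), Psmb3 with Pcgf2 (0.21), Pla2g6 (0.21), Gpatch1 (0.21) and Spsb2 with Tpi1 and Usp5 (0.22). Their Keap1KO heights ran from 23 to 30, and Psmb3 was the only proteasome gene among them. To Psmd1, the tallest, the nearest were Faf1 (0.44) and Ppard (0.46), a nuclear receptor gene with 49 in Keap1KO, against 10 in Nrf2KO and 14 in wild-type.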

How the data were processed

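Mouse esophagus was assayed in 3 Nrf2 ChIP-seq libraries, 1 each of Keap1KO, Nrf2KO and wild-type, grouped by the genotype label. Per the submitters' processing notes, BWA, MACS2 2.1.0 and the build mm10 were used, and parameters, depth and scaling are not stated. The deposited signal, per the file headers, is an average peak height per gene over its active regions, with a flag for a called interval and no unit stated. All 5043 heights of the 1681 genes with 1 region were exactly whole numbers. Without a known depth, heights carry no counting interval. No column of another sample was present.

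Interval positions were computed from gene start, strand and listed distance (1649 of 1727 were multiples of 16 bp). Intervals were merged to the stated region counts, 1684 in all, and heights were solved by least squares into 1460 loci (largest residual 0.00186), a step tested on simulated data. A gene was taken by its locus of highest mean height. Ratios are log2(height + 1), 2-fold is a rule of size only, and heights within 0.02 count as equal. Python 3.11.15, numpy 2.4.6 and pandas 2.3.3 were used. Alternatives were the pseudocount, gene row heights, scaling, a filter on mean height, unshared intervals, distance limits, call height, list and motif. The members and lists were chosen with earlier results of these data known. Named were the 6 genes, genes sharing their intervals, listed proteasome and comparison genes with a locus, and the loci nearest in pattern, of which 1 is not reported here.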

Additional observations from a re-analysis of the deposited data

How the results depend on the processing

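No paired analysis was possible because there is 1 library of each genotype. A value was counted as moved past 1.5-fold. Pseudocounts of 0.5 and 5, heights as listed per gene, the filter on mean height (passed by all 6 genes) and the other locus of Psmd12, an alternative chosen after seeing the data, moved no median or count of the 6 that far. With a pseudocount of 5, 5 of 6 genes were 2-fold or more above wild-type in Keap1KO, and the log2 ratios of Psmc1 over wild-type (2.04) and Psmd4 over Nrf2KO (1.42) moved, by construction.

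Scaling decides the ratios of Keap1KO. With each library scaled to a common median over all loci, the median of all loci became 0.070 for Keap1KO over wild-type and 0.075 over Nrf2KO. That of the 6 became −0.050 and −0.14, with 0 of 6 at least 2-fold higher in either. Psmc3 (−0.42), Psmd1 (−0.19) and Psmd4 (−0.55) then turned below wild-type, and Psmc1 (−0.56), Psmd1 (−0.30) and Psmd14 (−0.33) below Nrf2KO, and the median of Nrf2KO over wild-type became 0.045. This scaling removes by construction any difference shared by most loci. A common median over loci within 1 kb of a start was chosen after seeing the data. With it the 6 stood at 0.40 over wild-type and 0.58 over Nrf2KO, with 1 and 0 of 6 at least 2-fold higher. Psmd4 stood at −0.11 over wild-type. The medians of all loci were 0.50 and 0.79, but 68.9% of all loci lay farther than 1 kb from a start. Loci near a start, like those of the 6, have the same median height in every library under this scaling, by construction.

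Leaving out the genes with shared intervals left 3 genes, 3 of which were at least 2-fold higher in each comparison. The looser core was found in 2 genes and the core in 1. Calls, distances and the 19S list (9 without assembly chaperones, 10 with them) were within 1.5-fold of the values reported. Of the values of single genes under an alternative, 108 stayed within 1.5-fold and 20 moved past 1.5-fold with their sign kept. Nearly all of these 20 became smaller, most of them under a scaling. Psmd12 over Nrf2KO rose, from 2.00 to 2.66 by its other locus. A change of sign was found for 8 values, all under the 2 scalings, and 1 of these, Psmd1 in Nrf2KO over wild-type (−0.093 as deposited, 0.10 scaled over all loci), stayed within 1.5-fold. Unknown depth limits every ratio between libraries.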
